A study of Homo sapiens with 7 samples.

Results

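The bins described here are stretches of 1 kb that were unmethylated in wild-type cells and partly methylated in stem cells without TET enzymes. A bin was included when its methylation level was under 20% in all 4 wild-type libraries and at least 20% but under 60% in the knockout stem cell library. This held for 2240 of 85087 bins measured (2.63%), which contain 47994 CpGs. A bin counted as measured when it held 5 or more CpGs with 10 or more reads in all 7 libraries, and its level is the methylated reads of both strands divided by all C and T reads. The wild-type levels and the knockout stem cell level therefore chose the bins, and they are given as a description without a test.

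The assay was enhanced reduced representation bisulfite sequencing, which reads CpG-rich fragments after bisulfite has turned unmethylated cytosine into a base read as T. A C read does not tell methylated cytosine from an oxidised form that also resists conversion. All libraries came from HUES8, an established line of human embryonic stem cells, either lacking all of TET1, TET2 and TET3 (triple knockout, TKO) or wild type (WT). They were taken along a cardiac differentiation in which the Wnt pathway was first activated with CHIR99021 and then blocked with IWP2, followed by a lactate medium that enriches heart muscle cells. The TKO libraries were TKO SC (stem cells, day 0), TKO CME (cardiac mesoderm, day 3) and TKO CP (cardiac progenitors, day 8). The WT libraries were WT SC, WT CME and WT CP at the same days and WT CM (beating cardiomyocytes, day 14 in the series text and day 15 in its description). TKO cells gave no beating cardiomyocytes and have no CM library. There was 1 library per genotype and stage, and the labels do not say whether TKO cells were 1 clone. One label field of the WT CM library reads CME, and its title was followed here. The files hold neither sequence nor expression, so neither the knockout nor the cell stages were checked.

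TET enzymes oxidise 5-methylcytosine, which is a step towards its removal. CpG islands, the CpG-rich stretches at many gene starts, are mostly free of methylation in normal cells, and TET1 is known to bind there. An intermediate level of a bin can come from CpGs that are each partly methylated or from a mixture of methylated and unmethylated CpGs, and the level of the bin alone does not tell these forms apart.

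Promoter sequences are shown for 7 genes at these bins, and a sequence can span neighbouring bins. They were chosen so that a rise, a fall, an even intermediate level and a split within a promoter can each be seen at single CpGs. Each is the 250 bases before a RefSeq transcription start, read 5′ to 3′ on the strand of the gene, with coordinates in build GRCh38.p14, while bins carry the hg19 coordinates of the files. Capitals mark the CpGs with a level of 60% or more in TKO CP, and a CpG in lower case was either below that level or not measured in all 7 libraries. DRC1 (chr2:26401670-26401919, plus strand) encodes a subunit of the dynein regulatory complex of motile cilia. WT1 (chr11:32430814-32431063, minus strand) encodes a zinc finger transcription factor of kidney, gonad and epicardium. KCNE1 (chr21:34459601-34459850, minus strand) encodes a subunit of a cardiac potassium channel, and VENTX (chr10:133237605-133237854, plus strand) a homeobox transcription factor. CABYR (chr18:24138812-24139061, plus strand) encodes a calcium-binding protein of the sperm tail. CCDC181 (chr1:169427475-169427724, minus strand) encodes a coiled-coil protein. CLBA1 (chr14:104986029-104986278, plus strand) encodes a clathrin-binding protein, and of 148 promoters with 10 or more measured CpGs in these bins it had the largest standard deviation (SD) between CpGs in TKO SC, 39.1 points. WT1 and CLBA1 were chosen after their values were seen.
DRC1: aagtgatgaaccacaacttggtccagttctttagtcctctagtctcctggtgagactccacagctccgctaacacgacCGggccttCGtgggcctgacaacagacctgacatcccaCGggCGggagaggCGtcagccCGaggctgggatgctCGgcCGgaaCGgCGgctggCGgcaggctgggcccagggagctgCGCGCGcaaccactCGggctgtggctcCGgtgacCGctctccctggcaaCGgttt
WT1: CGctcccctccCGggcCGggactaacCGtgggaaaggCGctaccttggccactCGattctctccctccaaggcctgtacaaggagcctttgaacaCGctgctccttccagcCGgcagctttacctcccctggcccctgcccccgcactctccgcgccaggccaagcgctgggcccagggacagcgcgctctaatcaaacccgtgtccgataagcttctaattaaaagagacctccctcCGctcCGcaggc
KCNE1: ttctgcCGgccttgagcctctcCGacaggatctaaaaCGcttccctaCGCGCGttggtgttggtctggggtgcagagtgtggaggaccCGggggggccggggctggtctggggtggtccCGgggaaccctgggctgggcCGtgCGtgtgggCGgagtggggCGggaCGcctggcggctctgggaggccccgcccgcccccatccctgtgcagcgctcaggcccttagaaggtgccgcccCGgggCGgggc
VENTX: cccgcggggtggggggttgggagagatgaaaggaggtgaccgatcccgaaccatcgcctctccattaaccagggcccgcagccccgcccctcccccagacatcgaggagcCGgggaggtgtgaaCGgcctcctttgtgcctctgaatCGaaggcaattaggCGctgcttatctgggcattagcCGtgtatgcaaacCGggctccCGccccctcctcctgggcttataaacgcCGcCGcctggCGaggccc
CABYR: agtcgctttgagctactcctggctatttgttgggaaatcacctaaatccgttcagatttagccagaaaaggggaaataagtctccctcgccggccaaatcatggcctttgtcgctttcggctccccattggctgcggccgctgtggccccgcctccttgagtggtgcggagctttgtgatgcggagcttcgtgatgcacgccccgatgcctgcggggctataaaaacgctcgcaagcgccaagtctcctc
CCDC181: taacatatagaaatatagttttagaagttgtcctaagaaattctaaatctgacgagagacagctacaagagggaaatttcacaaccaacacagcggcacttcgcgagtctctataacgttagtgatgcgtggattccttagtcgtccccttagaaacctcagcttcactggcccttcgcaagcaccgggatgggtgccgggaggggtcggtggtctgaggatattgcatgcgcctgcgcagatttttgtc
CLBA1: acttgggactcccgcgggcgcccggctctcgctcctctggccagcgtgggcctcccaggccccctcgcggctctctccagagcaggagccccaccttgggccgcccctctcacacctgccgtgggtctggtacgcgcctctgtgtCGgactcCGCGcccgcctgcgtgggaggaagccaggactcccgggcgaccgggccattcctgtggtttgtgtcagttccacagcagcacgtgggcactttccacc
At DRC1 all 18 measured CpGs of the sequence reached 60% in TKO CP, where the lowest was 86.9%. In TKO SC those CpGs lay between 14.2% and 44.3%, and in TKO CME between 17.8% and 49.6%. At WT1 the 10 measured CpGs averaged 40.0% (TKO SC), 39.9% (TKO CME) and 94.0% (TKO CP). At KCNE1 all 15 measured CpGs were at 60% or more in TKO CP, against 5 in TKO CME. At VENTX 10 of 11 measured CpGs were at 60% or more in TKO CP, and none was in TKO CME. At CABYR the 9 measured CpGs lay between 31.8% and 48.1% in TKO CP and between 18.1% and 31.8% in TKO CME, and none reached 60%. At CCDC181 the 4 measured CpGs lay between 0.8% and 3.8% in TKO CP, against 20% to 33.3% in TKO CME. At CLBA1 the 12 measured CpGs covered 0% to 95.7% in TKO CP and 0% to 98.7% in TKO CME. Over the measured CpGs of the sequences shown, the average in WT SC was 5.19% at DRC1, 2.25% at WT1, 7.53% at KCNE1 and 1.68% at VENTX. It was 2.96% at CABYR, 2.91% at CCDC181 and 19.4% at CLBA1.

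Depth was of the same order in the 7 libraries. Summed coverage ran between 120742115 and 213058905 reads, and the median coverage of a shared CpG between 45 and 94 reads. The 95% Wilson interval of a bin level reached a median of 2.26 (TKO SC), 2.19 (TKO CME) and 2.43 (TKO CP) points to either side, and the widest reached 12.7 points. These intervals cover counting error only: one read can be counted at several CpGs, PCR copies are not independent molecules, and nothing here measures the spread between cultures. The share of C reads on the mitochondrial genome, used as a measure of unconverted cytosine, was 0.139% to 0.387% in the TKO libraries and 0.216% to 1.46% in the WT libraries. It was highest in WT SC (1.46%) and WT CME (1.44%), whose descriptions alone carry the suffix BS. After correction of every level for it, 2299 bins lay inside the limits.

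The typical partly gained bin was methylated at 32.1% in TKO SC and at 7.52% in WT SC. The median level was 32.1% (TKO SC, quartiles 24.5% and 43.1%), 32.8% (TKO CME, 24.6% and 45.0%) and 37.9% (TKO CP, 24.2% and 55.7%). In WT it was 7.52% (WT SC), 8.98% (WT CME), 3.41% (WT CP) and 4.07% (WT CM). The middle of the distribution thus moved little between the TKO libraries, whereas its upper end moved more. The 95th percentile was 56.1% (TKO SC), 60.2% (TKO CME) and 87.8% (TKO CP). At the lower limit, chr5:180601001-180602000 and chr20:21684001-21685000 stood on it in TKO SC and were included, as was the TBX1 promoter bin chr22:19744001-19745000. Just outside it, at 19.99%, stood chr11:355001-356000 and chr8:144416001-144417000. At the upper limit, chr10:119311001-119312000 (59.95%) and the C2CD4C promoter bin chr19:409001-410000 (59.93%) were just inside, and chr1:149333001-149334000 and chr10:119313001-119314000, both on the limit, just outside. The limits cut a continuous range. Both bins near EMX2, a homeobox gene of the forebrain, ended high: chr10:119311001-119312000 at 91.2% and chr10:119313001-119314000 at 89.2% in TKO CP.

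**Figure D1:**
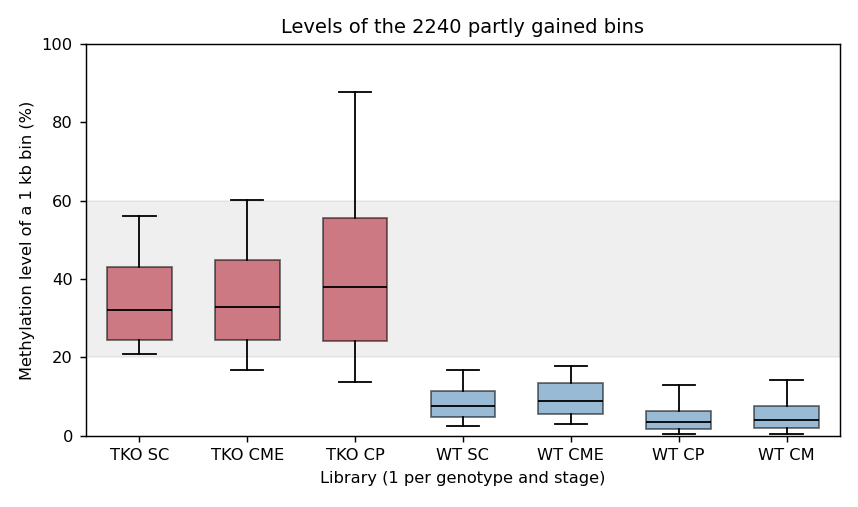
Methylation level of the 2240 partly gained bins (y axis, %) in each library (x axis). Boxes show the median and quartiles, whiskers the 5th and 95th percentiles, and the grey band marks the 20% to 60% range that chose the bins in TKO SC. The upper quartile is 55.7% in TKO CP, against 45.0% in TKO CME and 43.1% in TKO SC, and all WT medians lie under 10%.

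Few of these bins moved by much between TKO SC and TKO CME. The median difference of TKO CME minus TKO SC was 0.87 points, with quartiles of -3.36 and 5.10. By Fisher's exact test on reads, with Benjamini-Hochberg adjustment over the 85087 bins, calls required an adjusted p below 0.01 together with 25 points or more between the libraries. This called 3 of the 2240 bins higher and 1 lower in TKO CME, where 0.0223% and 0.0188% of all bins were called, and since TKO SC chose the bins these counts are a description. At TKO CME 252 bins (11.3%) had dropped out below 20% and 117 (5.22%) stood at 60% or more. Between TKO SC and TKO CP the median difference was 3.83 points, 366 bins were called higher (16.3%, background 1.08%) and 12 lower (0.536%, background 0.0693%), again as a description.

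A minority of the bins rose by 25 points or more between TKO CME and TKO CP, 2 libraries that had no part in choosing them. Of the 2240 bins, 291 (13.0%) were called higher in TKO CP and 15 (0.670%) lower, where 0.772% and 0.0599% of all bins were called. These tests compare 2 libraries rather than 2 conditions and cover counting error only. The 291 bins made up 44.3% of the 657 bins called higher over the whole table. The median difference over the 2240 bins was 3.14 points (quartiles -3.17 and 13.3), against 1.497 points over all bins. Of the 2240 bins 63.1% lay above 0, a smaller share than the 67.5% over all bins. By the adjusted p alone, without the limit on size, 952 bins (42.5%, background 23.6%) were higher and 400 (17.9%, background 4.97%) were lower, so shifts under 25 points ran in both directions. At TKO CP 480 bins (21.4%) stood at 60% or more, 187 of them (8.35%) at 80% or more, 1428 (63.8%) stayed between 20% and 60%, and 332 (14.8%) were under 20%.

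The same comparison is given for the other methylation classes as a description, since the difference between classes was not tested. Of 1414 bins unmethylated in WT and at 60% or more in TKO SC, 35 (2.48%) were called higher and 12 (0.849%) lower. Their median difference was 2.68 points. These bins started at a median of 84.5% in TKO CME, which leaves less room for a rise of 25 points. Of 25084 bins unmethylated in WT and under 20% in TKO SC, 180 (0.718%) were called higher and 0 lower. Of 2014 bins in the same TKO SC range but not under 20% in every WT library, 86 (4.27%) were called higher and 9 (0.447%) lower, for which the median was 3.16 points. The rule holds the WT levels of the 2240 bins under 20%, so WT CP and WT CME were not compared by a test there. The median of WT CP minus WT CME over these bins was -4.50 points, beside -1.71 points over all bins. The WT CME library also had the higher share of mitochondrial C reads, 1.44% against 0.219% in WT CP, and its part in that difference was not tested.

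The 291 bins that rose were mostly methylated by the progenitor stage. Their medians were 39.2% (TKO SC), 42.3% (TKO CME) and 81.9% (TKO CP), and in WT 5.10% (WT SC), 6.46% (WT CME), 2.49% (WT CP) and 2.95% (WT CM). The 15 bins that fell had medians of 48.2% (TKO SC), 54.7% (TKO CME) and 25.2% (TKO CP). The 1934 bins in neither group had medians of 31.2%, 31.7% and 34.0% in those libraries. By starting level, 90 of 1003 bins (8.97%) at 20% to under 30% in TKO SC rose, 61 of 548 (11.1%) at 30% to under 40%, 67 of 392 (17.1%) at 40% to under 50% and 73 of 297 (24.6%) at 50% to under 60%. By WT level, 19 of 59 bins (32.2%) under 2% in WT SC rose, 122 of 538 (22.7%) at 2% to under 5%, 108 of 907 (11.9%) at 5% to under 10%, and 42 of 736 (5.71%) at 10% to under 20%. On the X chromosome 13 of 44 bins (29.5%) rose, against 278 of 2195 (12.7%) on the autosomes. Over all bins of every chromosome 0.772% were called higher. The share over all X bins is not given here, and the difference between chromosomes was not tested.

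Within a partly gained bin the CpGs mostly did not share one level. The median SD between the CpGs of a bin was 22.1 points (TKO SC), 22.1 (TKO CME) and 21.8 (TKO CP), where counting error alone would give 5.33, 5.05 and 5.97. In WT the median SD was 8.12 points (WT SC), 8.87 (WT CME), 4.92 (WT CP) and 5.79 (WT CM). The lowest and the highest CpG of a bin lay a median of 70.4 points apart in TKO SC. By a chi-square test of equal level over the CpGs of a bin, with Benjamini-Hochberg adjustment over the 85087 bins, the CpGs were called different at an adjusted p below 0.01 and an SD of 15 points or more. In TKO CME this called 1698 of the 2240 bins (75.8%, background 16.7%) and in TKO CP 1586 (70.8%, background 17.1%). A bin at an intermediate level has more room for spread than one near 0% or 100%, and the bins in the same TKO SC range that were not under 20% in every WT library had 1791 of 2014 called (88.9%) in TKO CME. Their median SD in TKO CME was 30.6 points, against 9.29 points in the bins at 60% or more in TKO SC. Over all CpGs of the 2240 bins, 37.7% were under 20% in TKO SC, 41.4% between 20% and 60%, and 20.8% at 60% or more. In TKO CP these shares were 31.9%, 31.6% and 36.4%, so the middle class shrank and the high class grew.

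The high and the low CpGs of a bin were largely the same ones at each stage. The deviation of each CpG from the mean of its bin correlated between TKO CME and TKO SC with a Pearson r of 0.931, between TKO CP and TKO CME with 0.903, and between TKO SC and WT SC with 0.674 (47994 CpGs each). In bins unmethylated in WT and under 20% in TKO SC the same values were 0.927, 0.904 and 0.720. In bins of the same TKO SC range but not under 20% in every WT library they were 0.954, 0.944 and 0.877. In bins at 60% or more in TKO SC they were 0.738, 0.716 and 0.228. The shared pattern was thus not particular to the partly gained bins. CpGs of a bin share reads and base composition, so these values describe the pattern and have no p. Neighbouring CpGs were alike over short distances. In TKO CME the median difference between CpGs 2 to under 10 bases apart was 6.09 points, at 50 to under 100 bases 14.0 points and at 300 to under 1000 bases 35.7 points. The plus and minus strand of the same CpG differed by a median of 6.10 points in TKO CME, while CpGs lay a median of 17.1 points from the mean of their bin, so the spread was larger than the disagreement of the strands.

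**Figure D2:**
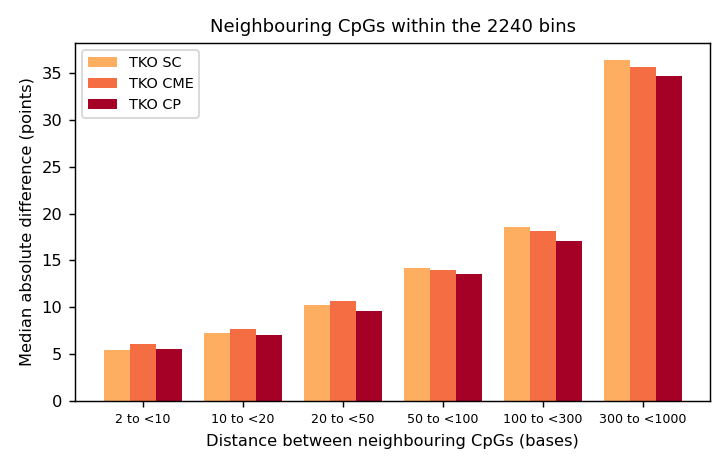
Median absolute difference in level between neighbouring CpGs of the 2240 bins (y axis, percentage points) by their distance (x axis, bases) in TKO SC, TKO CME and TKO CP. The difference grows with distance in all 3 libraries, in TKO CME to 35.7 points at 300 to under 1000 bases, against 6.09 points at 2 to under 10 bases.

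In 623 bins (27.8%) the CpGs were split, with at least 20% of them under 20% and at least 20% of them at 60% or more in TKO SC. Along 460 of these bins (73.8%) the low and the high CpGs changed over exactly once in TKO SC, 449 (72.1%) did so in TKO CME and 423 (67.9%) in TKO CP. Their median level was 33.1% (TKO SC), 32.3% (TKO CME) and 33.0% (TKO CP), with a median SD of 32.5 points in TKO SC, and 21 (3.37%) rose. The bin with the largest SD among those with 10 or more CpGs was chr6:114180001-114181000, where 21 of 37 CpGs were under 20% and 16 were at 60% or more. Its level was 36.5% (TKO SC), 27.7% (TKO CME) and 24.5% (TKO CP), and 6.27% (WT SC), 5.98% (WT CME), 5.24% (WT CP) and 3.35% (WT CM). Its level in TKO CP was 3.18 points below that in TKO CME (95% interval -5.17 to -1.16) and was not called. USP2, which encodes a ubiquitin-specific protease, lay in the bin with the fourth largest SD, chr11:119234001-119235000, with 23 of 36 CpGs under 20%, 13 at 60% or more and an SD of 42.8 points in TKO SC. Its level was 32.6% (TKO SC), 23.3% (TKO CME) and 25.6% (TKO CP), and a difference of 2.26 points between TKO CP and TKO CME was not called.

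The share of bins that rose was 28.4% where the CpGs of a bin lay at similar levels and 3.62% where they lay far apart; the difference between these shares was not tested. The bins were grouped by their SD between CpGs in TKO SC, a value that did not choose them, with class limits set with the data in view. Of 500 bins with an SD under 15 points, 142 (28.4%) were called higher in TKO CP, and the median difference was 10.4 points. Of 856 bins with an SD of 15 to under 25 points, 117 (13.7%) were, with a median difference of 3.67 points. Of 884 bins with an SD of 25 points or more, 32 (3.62%) were, with a median difference of 1.06 points, and the background was 0.772%. The even bins had median levels of 35.0% (TKO SC), 38.5% (TKO CME) and 49.97% (TKO CP). The bins with the largest spread had 29.9%, 29.9% and 30.8%. The order of the 3 classes was the same at each starting level: among bins at 20% to under 30% in TKO SC the shares that rose were 22.1%, 9.09% and 3.15%, and among those at 50% to under 60% they were 41.6%, 25.4% and 2.70%. The even bins also differed in other ways, with a median of 12 CpGs against 19 in the bins with the largest spread, and WT SC medians of 5.06% and 9.50%. The part of these differences in the result was not tested. Across the 2240 bins the SD in TKO SC and the difference of TKO CP minus TKO CME had a Pearson r of -0.281 and a Spearman rho of -0.254, as a description over bins of the same libraries. At TKO CP 194 of the even bins (38.8%) stood at 60% or more, against 78 (8.82%) of those with an SD of 25 points or more.

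**Figure D3:**
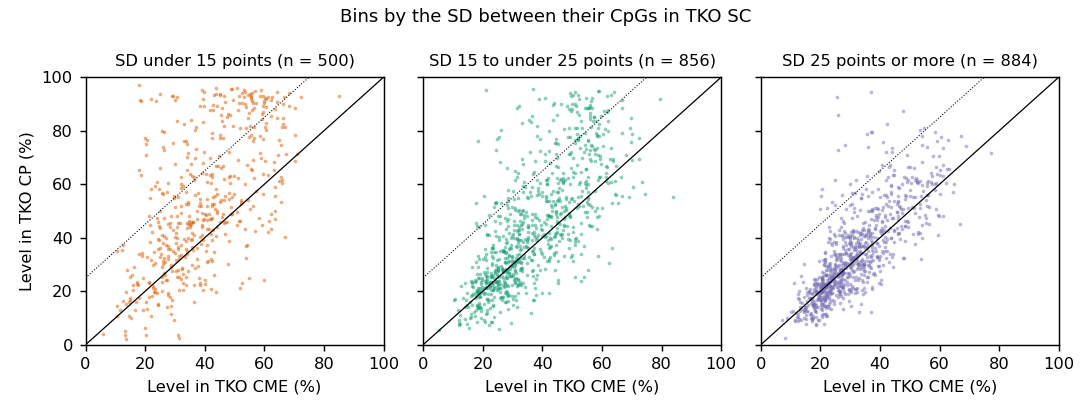
Level of each partly gained bin in TKO CP (y axis, %) against its level in TKO CME (x axis, %), in panels by the SD between its CpGs in TKO SC. The solid line marks equal levels and the dotted line a difference of 25 points. Above the dotted line lie mostly bins of the first 2 panels (142 and 117 called higher, against 32 in the third).

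The change was also taken by the level of each CpG. CpGs at 20% to under 40% in TKO SC had a median difference of TKO CP minus TKO CME of 9.50 points, and those at 40% to under 60% one of 10.2 points. CpGs under 5% in TKO SC had a median difference of 0 points and those at 80% or more one of 2.20 points. A rise of 25 points or more was seen at 26.9% and 27.7% of the CpGs in the 2 middle classes, at 3.18% of those under 5% and at 1.88% of those at 80% or more. The last class had a median of 87.8% in TKO CME, so most of its CpGs could not rise by 25 points. In the 291 bins that rose, the SD between CpGs had a median of 15.2 points (TKO SC), 15.3 (TKO CME) and 9.55 (TKO CP).

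The 6 largest rises among bins with 10 or more CpGs ended above 90%. The DRC1 promoter bin chr2:26624001-26625000, with 31 CpGs, had 24.2% (TKO SC), 25.1% (TKO CME) and 93.8% (TKO CP), and 4.80% (WT SC), 4.62% (WT CME), 0.340% (WT CP) and 0.886% (WT CM). Its level was 68.7 points higher in TKO CP than in TKO CME (95% interval 67.2 to 70.2), with an adjusted p too small for the software to write. Every WT library lay far below every TKO library at this bin, and the rise lay wholly between TKO CME and TKO CP. The largest rise was in chrX:138277001-138278000, where TKO SC had 22.6%, TKO CME 18.1% and TKO CP 96.9%, against 2.34% (WT SC), 2.36% (WT CME), 0.654% (WT CP) and 2.63% (WT CM). Its difference of TKO CP minus TKO CME was 78.8 points (95% interval 73.6 to 82.5; Fisher's exact test, adjusted p = 2.2e-84). This bin also had the smallest SD between CpGs in TKO SC, 2.78 points, so among bins with 10 or more CpGs it was both the most even and the most changed. The nearest placed promoter was that of FGF13, which encodes an intracellular fibroblast growth factor homologue. The other 4 were chr15:98836001-98837000, chr19:20748001-20749000, chr12:26379001-26380000 and chr10:119294001-119295000. They had 20.5% to 29.0% in TKO SC, 18.4% to 22.01% in TKO CME and 91.1% to 95.4% in TKO CP, and at most 6.23% in any WT library.

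**Figure D4:**
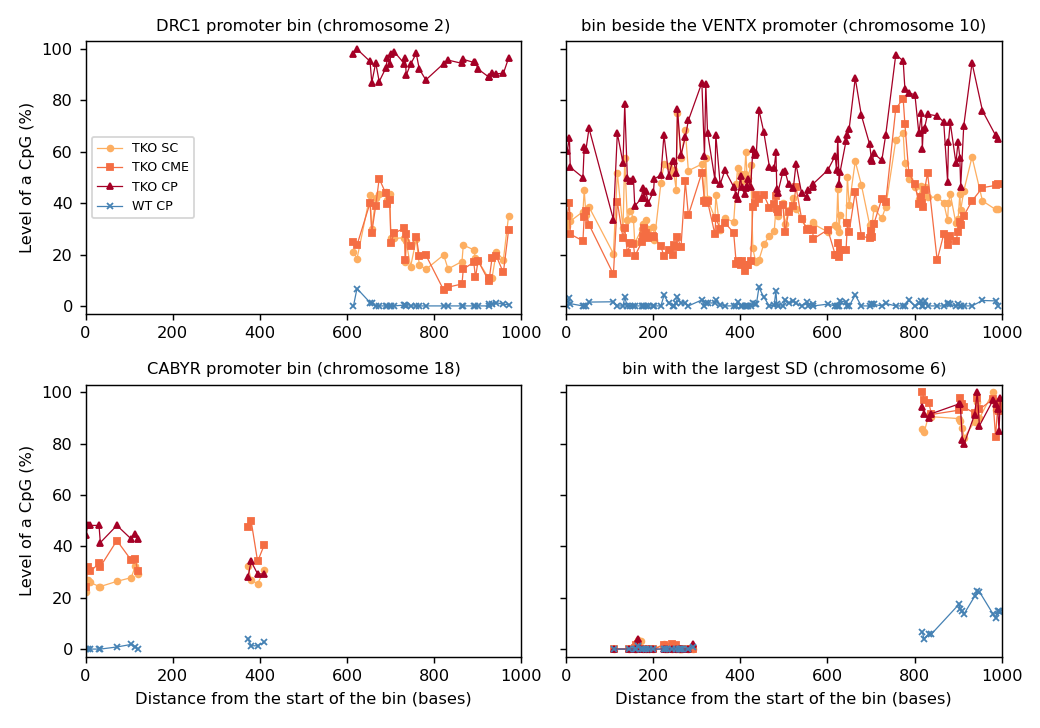
Level of each measured CpG (y axis, %) by its distance from the start of its bin (x axis, bases) in TKO SC, TKO CME, TKO CP and WT CP, for 4 bins. Lines are broken over long gaps. DRC1 rises at every CpG, the bin beside VENTX rises unevenly, CABYR stays under 50% in TKO CP, and the bin with the largest SD (45.6 points in TKO SC) holds a low and a high block at every TKO stage.

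Among the 15 bins that fell, the CCDC181 promoter bin chr1:169396001-169397000, with 12 CpGs, had 27.1% (TKO SC), 31.4% (TKO CME) and 2.57% (TKO CP), and 2.63% (WT SC), 2.75% (WT CME), 0.0826% (WT CP) and 0.159% (WT CM). It was 28.8 points lower in TKO CP than in TKO CME (95% interval of the difference -31.3 to -26.2; Fisher's exact test, adjusted p = 6.4e-90). Its TKO CP level lay below WT SC and WT CME, the 2 libraries with the BS suffix, and above WT CP and WT CM. Among the 6 largest falls, chr8:27132001-27133000 also came down to a low level, 3.65% in TKO CP against 31.0% in TKO CME, with 0.125% to 3.17% in WT. The remaining 4 kept 22.99% to 25.5% in TKO CP, against 52.4% to 54.7% in TKO CME; among them was the promoter bin of ABHD1, which encodes a protein of the alpha/beta hydrolase family. With levels averaged over CpGs, the ABHD1 bin fell by 23.5 points and was no longer called.

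Some even bins stayed intermediate. The CABYR promoter bin chr18:21719001-21720000 had 27.7% (TKO SC), 36.2% (TKO CME) and 41.1% (TKO CP), and 6.14% (WT SC), 7.44% (WT CME), 1.11% (WT CP) and 0.769% (WT CM). Its SD between CpGs was 3.11 points in TKO SC. The difference of TKO CP minus TKO CME was 4.86 points (95% interval -0.0571 to 9.81; Fisher's exact test, adjusted p = 0.12) and was not called. The ZNF30-AS1 promoter bin chr19:35417001-35418000 and chr20:9488001-9489000 were also even and intermediate, at 43.8% and 35.9% in TKO CP against 39.0% and 28.2% in TKO CME.

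Partly gained bins formed 2074 runs, of which 1922 were single bins, 138 held 2 bins and 14 held 3. Of 4480 neighbouring positions 2379 (53.1%) were not measured, so a run can end at a gap in the assay. Of 2101 neighbouring bins that were measured, 53.5% were unmethylated in WT and under 20% in TKO SC, 24.7% were not under 20% in every WT library, 15.8% were themselves partly gained (beside 2.63% of all bins) and 6.04% were at 60% or more in TKO SC. Adjacent partly gained bins changed alike: in 166 adjacent pairs the change of TKO CP minus TKO CME had a Pearson r of 0.881, a description of bins that can share fragments. Both bins were called higher in 38 pairs, 1 of them in 20 and neither in 108.

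In the run of 3 bins at VENTX (chr10:135049001-135052000, 171 CpGs) the level was 42.3% (TKO SC), 37.5% (TKO CME) and 64.8% (TKO CP), and 3.54% (WT SC), 2.96% (WT CME), 1.41% (WT CP) and 2.25% (WT CM). All 3 bins were called higher in TKO CP, the middle one not on the minus strand alone, where it was 23.7 points higher. In the run at LOC105378933, a RefSeq locus on chromosome 1 (chr1:119542001-119545000, 78 CpGs), TKO SC had 37.3%, TKO CME 41.3% and TKO CP 74.0%, and 2 of its 3 bins were called higher. The run at TYMP, which encodes thymidine phosphorylase, and CIMAP1B, a gene of the ciliary microtubule-associated protein family (chr22:50968001-50971000, 146 CpGs), had 39.4%, 42.3% and 60.5% in those libraries and no bin past 25 points. The run at HOXA9, a homeobox gene of the HOXA cluster (chr7:27204001-27207000, 90 CpGs), had 42.6% (TKO SC), 40.7% (TKO CME) and 45.7% (TKO CP), and 16.4% (WT SC), 12.9% (WT CME), 15.7% (WT CP) and 12.7% (WT CM). None of its 3 bins was called.

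156 bins lay between a bin under 20% in TKO SC and a methylated bin. The methylated bin was either at 60% or more in TKO SC or not under 20% in every WT library. These kinds of neighbour were not taken apart. The 156 bins were followed in steps of 100 bases, starting at the unmethylated side. In TKO SC the mean CpG level was 7.95% in the first step and 67.4% in the last. In TKO CME these means were 9.26% and 69.8%, and in TKO CP 12.9% and 81.1%. In WT SC they were 2.68% and 23.3%. The bins were picked by the TKO SC and WT levels of their neighbours, low on the unmethylated side and methylated on the other. A climb towards the methylated side is therefore partly built in. The rule also holds WT levels under 20%, so a shallower slope in WT follows from it. 16 of the 156 bins (10.3%) were called higher in TKO CP, and their median difference was 2.63 points.

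**Figure D5:**
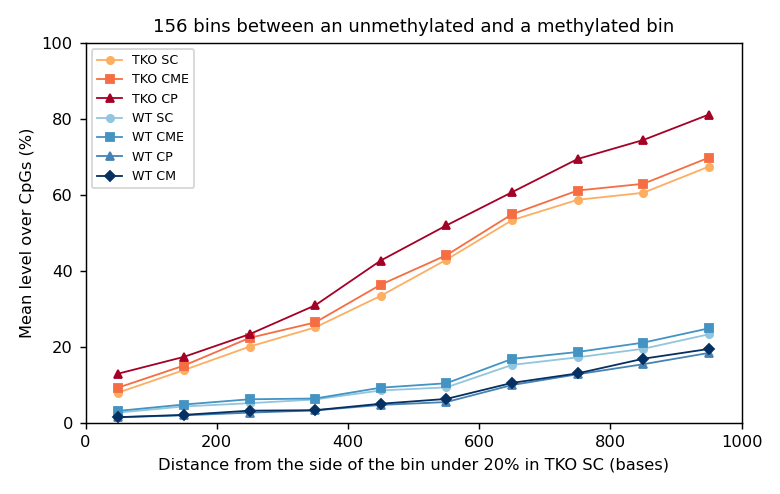
Mean CpG level (y axis, %) in steps of 100 bases across 156 partly gained bins that lie between an unmethylated and a methylated bin (x axis, distance from the unmethylated side). All 7 libraries climb across the bin, TKO CP to 81.1% and WT SC to 23.3% in the last step.

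Most partly gained bins held no located gene start. Promoters were located in the files by matching the spacing of CpGs in RefSeq promoter sequences, which placed 13631 of 35116 promoters (38.8%), so a bin without one may still hold a gene start. On chromosomes with placed promoters, 362 of 2166 partly gained bins (16.7%) overlapped one, against 12.7% of bins at 60% or more in TKO SC, 44.4% of bins under 20% in TKO SC and 15.04% of all bins. Of the bins unmethylated in WT, 3.99% of those within 1 kb of a placed start were partly gained, 12.3% of those at 1 to 2 kb, 13.3% of those at 2 to 5 kb and 11.5% of those beyond 5 kb. The 386 promoters in partly gained bins had a median GC content of 70.2% and 28 CpGs, against 70.0% and 31 CpGs in bins under 20% in TKO SC. CpGs of these promoters lay a mean of 10.1 points below the mean of their own bin in TKO CME. The share also fell with the number of CpGs listed in at least 1 library: 15.5% of bins unmethylated in WT with 5 to 9 such CpGs were partly gained, and 3.14% of those with 60 or more.

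Of the 362 promoter bins, 49 (13.5%) were called higher in TKO CP and 2 (0.552%) lower. These shares were near the 13.0% and 0.670% over the 2240 bins, where 0.772% and 0.0599% of all bins were called. Potassium channel genes were among those with partly gained promoters, at 6 of 36 genes unmethylated in WT, where the share over all genes was 379 of 10669 (3.55%). KCNE1 was the channel gene whose bin was called higher: chr21:35831001-35832000 had 38.6% (TKO SC), 45.9% (TKO CME) and 83.7% (TKO CP), and 3.98% (WT SC), 3.89% (WT CME), 1.82% (WT CP) and 1.06% (WT CM). Its difference of TKO CP minus TKO CME was 37.8 points (95% interval 34.0 to 41.5). The bin beside it stood at 88.6% in TKO CP against 66.6% in TKO CME and was not called. The bins of KCNA7, KCNC1, KCND3 and KCNK4, which encode other potassium channel subunits, stood at 24.1% to 43.6% in TKO CP and were not called. KCNK10, a two-pore channel gene, stood at 58.5% in TKO CP against 38.6% in TKO CME and was not called. Collagen genes had 4 of 20 (COL11A2, COL27A1, COL9A1 and COL9A2), none of them called, with 26.3% to 65.3% in TKO CP. Solute carrier genes had 6 of 163, of which SLC9A3, a sodium-proton exchanger gene, rose to 92.6% in TKO CP against 53.3% in TKO CME. Zinc finger genes had 5 of 251 (1.99%), of which ZNF280D stood at 88.5% in TKO CP against 54.3% in TKO CME, and ZNF565 at 44.0% against 18.6%, both called higher.

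Among developmental families, HOX genes had 1 of 13 (7.69%, HOXA9), FOX genes 1 of 21 (4.76%, FOXI2), T-box genes 1 of 6 (16.7%, TBX1, a factor of pharyngeal and outflow tract development) and LHX genes 1 of 5 (20%, LHX3), beside 3.55% over all genes. WNT ligand genes had 1 of 12 (8.33%, WNT1), and none of the bins of these 5 genes was called. PAX, SOX, GATA and NKX factors and the BMP ligands had 0 of 5, 4, 3, 7 and 4, and the sine oculis homeobox factors 0 of 2. TBX1 stood at 14.9% in TKO CP against 30.2% in TKO CME, a difference of -15.3 points (95% interval -17.6 to -12.9). In TKO SC its bin stood at 20%, on the lower limit of the rule. The LHX3 bin chr9:139096001-139097000 stood at 24.1% in TKO CP against 45.4% in TKO CME, a difference of -21.3 points (95% interval -24.7 to -17.7), while FOXI2 stood at 45.8% against 36.1%. PCDHGC3, a protocadherin gene, was called higher, with 93.0% in TKO CP against 58.5% in TKO CME. The WT1 bin chr11:32452001-32453000 had 34.7% (TKO SC), 39.5% (TKO CME) and 91.7% (TKO CP), and 3.06% (WT SC), 3.30% (WT CME), 1.39% (WT CP) and 1.98% (WT CM). It was 52.2 points higher in TKO CP than in TKO CME (95% interval 50.2 to 54.2). A second placed WT1 promoter, upstream of that one, was outside these bins, and its 16 measured CpGs averaged 1.1% in TKO CP. CSRP1, which encodes a LIM domain protein of smooth muscle and was also picked after its values were seen, was called higher, with 89.5% in TKO CP against 42.8% in TKO CME in chr1:201476001-201477000.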

How the data were processed

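Alignment and methylation calling were done at a core facility, per the labels' protocols, on build hg19, per the submitters' processing notes. Aligner and caller: not given in the sources used here. Each deposited file holds, per CpG cytosine and strand, the coverage as a read count of 10 or more. Beside it stand the percent of C and the percent of T among those reads, per the file headers. C and T reads were computed from these, both strands of a CpG were summed, and CpGs with 10 or more reads in all 7 libraries were grouped into 1 kb bins of 5 or more.

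Fisher's exact test (two-sided) compared reads of 2 libraries per bin, and a chi-square test compared the CpGs of a bin, both with Benjamini-Hochberg adjustment over 85087 bins. Tested on simulated reads for TKO CP minus TKO CME over 85087 bins, the first called 98 of 100 bins changed by 30 points, 100 of 100 changed by 40 points and 0 of 84887 unchanged. For CpGs in TKO CME the second called 199 of 200 bins with CpGs set 50 points apart and 0 of 84887 with equal levels. The 50 points were fewer where a level was cut at the end of the scale. Simulated reads were drawn independently, without reads shared between CpGs or PCR copies. These counts therefore do not give the error rates in the real libraries. Intervals of differences are Newcombe intervals built from 95% Wilson limits.

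The design foresaw gene names from an hg19 annotation. None was used, so RefSeq promoter sequences (GRCh38.p14) were placed onto the files by CpG spacing where exactly 1 place matched 8 or more listed CpGs; 99.8% of placed promoters lay in step with a neighbour. No coordinate was converted. Antisense and overlapping genes that share a promoter cannot be told apart.

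Bins were named by rule: the 6 largest rises and falls and the 4 largest and smallest SD (each among bins with 10 or more CpGs), the 4 longest runs, 2 bins on each side of each limit, and families with 3 or more bins. FOXI2, TBX1, LHX3, WNT1 and PCDHGC3, of families with fewer bins, were named outside this rule. The bins and gene lists were chosen with earlier results of these data known. Alternatives changed the size limit, coverage, CpG number, level, bin start, conversion, strand, chromosomes, WT limit and WT libraries. Tools were scipy 1.17.1, numba 0.67.0, numpy 2.4.6, pandas 2.3.3 and matplotlib 3.10.9 under Python 3.11.15.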

Additional observations from a re-analysis of the deposited data

Results flagged for a closer look

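Over the partly gained bins, the median change of CP minus CME was 3.14 points in TKO and -4.50 points in WT. It was picked out because the medians of the 2 genotypes had opposite signs, and the difference between them was not tested, since there was 1 library per genotype and stage. The signs were also opposite over all bins (1.497 points in TKO and -1.71 points in WT), over bins at 60% or more in TKO SC (2.68 and -5.22 points) and over bins in the same TKO SC range that were not under 20% in every WT library (3.16 and -9.58 points). Over the 25084 bins unmethylated in WT and under 20% in TKO SC both medians were negative (-0.0457 points in TKO and -1.39 points in WT). The opposite signs are thus not particular to the partly gained bins, and they do not hold in every class.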

How the results depend on the processing

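No paired analysis was possible because there was 1 library per genotype and stage and the titles carry no replicate numbers. No replicate could be left out for the same reason. Of 142 alternative values for the main results, 119 stayed within the limits set for them, 23 moved and 0 reversed. With a size limit of 15 points, 1700 bins were called higher and 237 lower in TKO CP than in TKO CME, of which 500 and 70 were partly gained, and 41.4% of even bins and 8.94% of bins with an SD of 25 points or more rose. With 40 points the counts were 186 and 4, of which 95 and 0 were partly gained, and the shares were 11.4% and 1.02%. With 10 CpGs per bin, 25 bins were lower, 9 of them partly gained, and 36.5% of even bins rose. On the plus strand alone 32.8% of even bins rose, and on the minus strand alone 33 bins were lower. A WT limit of 10% left 1149 bins, of which 192 rose, with a median SD of 19.6 points in TKO CME and 18.8 points in TKO CP, and with CpGs called different in 791 and 721; it holds fewer bins by construction. The share that rose was larger for even bins than for bins with an SD of 25 points or more under each alternative run, including the SD taken in TKO CME (26.01% and 3.63%) and the SD less counting variance (28.0% and 3.58%). Without the 2 WT libraries with the BS suffix the rule gave 2843 bins, of which 313 rose and 20 fell; this, the SD alternatives and the even-bin shares were chosen after seeing the data. Of 338 alternative values for the 39 named bins, 20 lost and 7 gained their call. Averaging over CpGs ended the call of the falls at ABHD1, chr17:15689001-15690000 and chr8:27132001-27133000, and one strand alone those at chr8:40755001-40756000, chr17:15689001-15690000 and ABHD1. On the minus strand alone 2 of the TYMP bins were called higher (25.7 and 28.7 points). Depth limits bins with few reads, where the widest interval reached 12.7 points on either side.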
